A study of Homo sapiens with 9 samples.

Results

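The genes described here are those of the complement system. Of 36 complement genes listed by symbol, 35 had at least 1 probe set annotated to that gene alone, and CFHR5 had none among the annotated probe sets. The brightest probe set stood for its gene, and 26 of the 36 passed a filter on dim signals and were tested among 13056 genes in all. The genes were measured in HepG2, an established human cell line from a hepatocellular carcinoma, with 9 oligonucleotide arrays. According to the labels, knockdown1 (3 arrays) and knockdown2 (3 arrays) received small interfering RNA against both HNF4alpha and HNF4gamma, and control (3 arrays) is the control of that knockdown. What separates knockdown1 from knockdown2, what the control cells received and how long the treatment lasted are not in the labels. They do not say that the arrays of a group came from separate cultures, so p-values rest on the spread between arrays, and that spread may be technical.

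Complement is a cascade of plasma proteins that marks microbes and damaged cells for removal and is known to be made largely by hepatocytes. The classical pathway starts when C1 binds antibody, the lectin pathway when a sugar-binding lectin binds a surface, and the alternative pathway through factor B on C3b, and each leads to cleavage of C3 and C5. The terminal components C5b to C9 then build the membrane attack complex, while soluble and membrane-bound regulators limit the cascade on the body's own cells. HNF4alpha is a nuclear receptor that is known as a main regulator of hepatocyte genes, and HNF4gamma is a relative of it.

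The deposited values are linear signals with no read depth behind them, so the 3 arrays of each group set the precision. Levels below are signals scaled to a common array median of 14.1, and fold changes are differences of log2(signal + 1.41), which understates the change of dim genes. Hepatocyte markers were bright, with summed signals over 8 markers of 25838 to 30682 in knockdown1, 28773 to 30783 in knockdown2 and 29295 to 36011 in control. Of the 8, 2 fell over both knockdowns, beside 17.9% of all tested genes. The summed signal of 5 macrophage and leukocyte markers was 25.9 to 47.7 in knockdown1, 22.9 to 47.5 in knockdown2 and 27.3 to 63.1 in control. The 4 endothelial markers summed to 74.4 to 91.9, 87.5 to 108.8 and 59.7 to 61.8 in the same 3 groups, and the 4 stellate cell markers to 87.9 to 119.6, 98.7 to 132.5 and 83.3 to 123.0. PECAM1 alone of the endothelial markers passed the filter, and it rose over both knockdowns (0.59, limma adjusted p = 0.00373). The 4 biliary markers summed to 2740 to 3470 in knockdown1, 1982 to 2285 in knockdown2 and 1729 to 2523 in control, and 1 of them, KRT19, rose. EPCAM of the same list rose in knockdown1 (0.41, adjusted p = 0.0357) and fell in knockdown2 (-1.02, adjusted p = 6.94e-06), and KRT7 and SOX9 were not called. The part of these markers in the results was not tested. Of the targeted genes, HNF4G had signals of 14.4, 23.5 and 17.4 in knockdown1 and 41.9, 24.4 and 28.6 in knockdown2, against 45.2, 47.9 and 44.9 in control. HNF4G fell over both knockdowns (log2 fold change -0.92, standard error SE 0.24, limma adjusted p = 0.00345) and in knockdown1 (-1.28, adjusted p = 0.000538), while its value in knockdown2 did not pass (-0.56, adjusted p = 0.142). HNF4A was not analysed here because no annotated probe set names it alone.

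Complement genes fell more often than they rose, and the falls were in C2, factor B, C8 and soluble regulators. Over both knockdowns against control, 9 of the 26 tested complement genes fell and 3 rose, by limma with Benjamini-Hochberg adjustment over all tested genes. Among all 13056 tested genes, 17.9% fell and 14.7% rose in this comparison (32.6% called in either direction). As shares of the tested complement genes, 34.6% fell and 11.5% rose. Their median log2 fold change was -0.24, beside -0.01 for all tested genes. In 7 of the 26 genes every knockdown array lay below every control array, and in 1 gene every knockdown array lay above. Of all tested genes 20.9% were separated in this way, 11.2% below and 9.76% above. In bulk RNA, fewer cells that express a gene and less RNA of it per cell cannot be told apart.

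Taken one knockdown at a time, 8 complement genes fell and 5 rose in knockdown1, and 11 fell and 3 rose in knockdown2. Of all tested genes, 19.0% fell and 14.3% rose in knockdown1 (33.3% called in either direction), and 13.9% fell and 13.7% rose in knockdown2 (27.6% called in either direction). The 3 arrays of knockdown1 lay below those of control in 10 complement genes and above in 4, beside 21.7% and 18.1% of all tested genes (39.8% in either direction). Those of knockdown2 lay below control in 11 and above in 4, beside 19.8% and 19.9% (39.7% in either direction). Both comparisons share their 3 control arrays. C2, CFB, C8A, C8B, C8G, CPN1 and CPN2 fell in both knockdowns, and COLEC11 and CLU rose in both. Of all tested genes 8.26% fell in both and 7.42% rose in both. MBL2 was the 1 of 26 complement genes called in opposite directions in the 2 knockdowns, as were 1.12% of all tested genes.

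**Figure D1:**
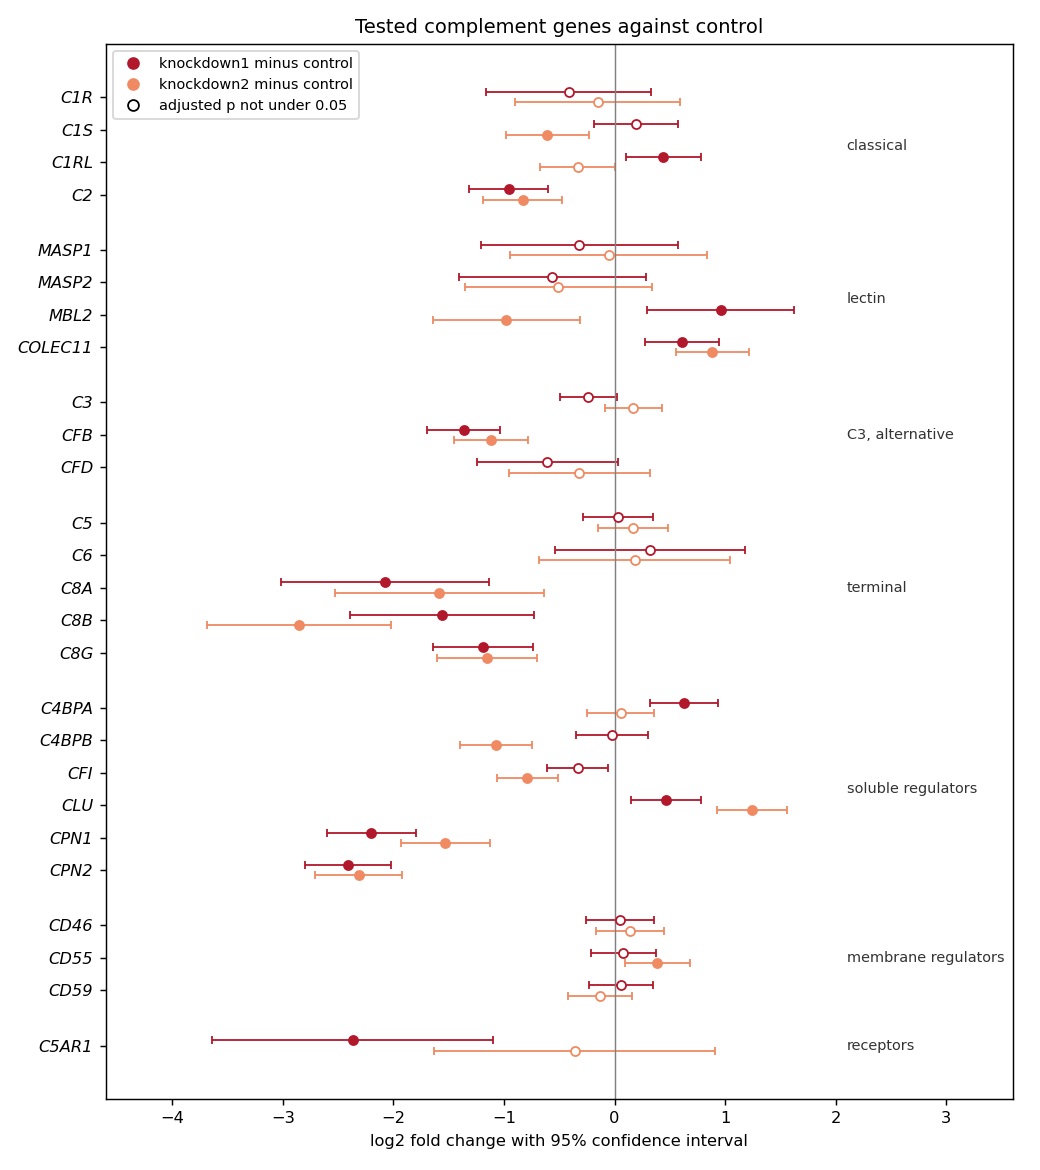
Log2 fold change of each of the 26 tested complement genes in knockdown1 and in knockdown2 against control, with 95% confidence intervals of the limma fit and filled symbols where the adjusted p passed. CPN1, CPN2, CFB, C2 and the C8 genes lie left of 0 in both knockdowns, and CD46, CD59 and C5 straddle 0.

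In the classical pathway, 1 of 4 tested genes, C2, fell over both knockdowns, beside 17.9% of all tested genes. C2 encodes the serine protease precursor that forms the C3 convertase of the classical and lectin pathways together with C4b. Its signals were 99.6, 149.8 and 162.6 in knockdown1 and 137.3, 144.9 and 159.2 in knockdown2, against 293.1, 280.5 and 219.3 in control. All 6 knockdown arrays lay below the lowest control array. The log2 fold change was -0.89 (SE 0.15, adjusted p = 3.3e-05) over both knockdowns, which is 1.86-fold lower. A dimmer C2 probe set fell by 1.36 (SE 0.22), with limma adjusted p = 9.18e-05 among all probe sets.

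C1S, the protease of the C1 complex that cleaves C4 and C2, had signals of 179.6, 149.6 and 213.8 in knockdown1 and 125.7, 80.6 and 105.2 in knockdown2, against 179.6, 123.6 and 171.7 in control. Knockdown2 was the low group, although its highest array lay just above the lowest control array. C1S fell by 0.61 in knockdown2 (SE 0.18, adjusted p = 0.0137), and its log2 fold change in knockdown1 was 0.20 (SE 0.18, adjusted p = 0.458). The knockdown2 call ended without control replicate 1 (-0.51, adjusted p = 0.0838), without knockdown2 replicate 2 (-0.44, adjusted p = 0.123) and without the variance trend (adjusted p = 0.0815). A dimmer C1S probe set gave -0.50 in knockdown2 and did not pass (limma adjusted p = 0.0742 among all probe sets). C1RL, a protease related to C1R, had signals of 147.5, 134.9 and 133.1 in knockdown1 and 89.9, 73.3 and 78.5 in knockdown2, against 121.4, 93.5 and 91.8 in control. Every knockdown1 array was above every control array and every knockdown2 array below.

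The C1RL rise in knockdown1 was 0.44 (SE 0.17, adjusted p = 0.0391). That call ended when any 1 of 7 arrays was left out, namely each knockdown1 array, knockdown2 replicates 2 and 3 and control replicates 2 and 3 (0.37 to 0.47, adjusted p = 0.0503 to 0.129). It also ended with the mean of the gene's probe sets (0.03, adjusted p = 0.918), since a dimmer probe set gave -0.38 in knockdown1, and when dim probe sets were kept or the variance trend was dropped (adjusted p = 0.071 and 0.0541). C1R, which activates C1S, was dim, with means of 15.5 ± 1.71 in knockdown1, 19.6 ± 6.87 in knockdown2 and 21.1 ± 0.891 in control (SD, n = 3 each). Its change over both knockdowns did not pass (-0.28, 95% confidence interval -0.93 to 0.36, adjusted p = 0.545).

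Among the lectin pathway genes, COLEC11 rose and MBL2 separated the knockdowns. COLEC11 encodes collectin-11, a sugar-binding protein that can start the lectin pathway. Its signals were 331.3, 280.3 and 389.0 in knockdown1 and 401.4, 375.7 and 425.1 in knockdown2, against 228.1, 173.4 and 255.5 in control. COLEC11 was the complement gene in which all 6 knockdown arrays lay above all 3 control arrays. It rose by 0.75 over both knockdowns (SE 0.14, adjusted p = 0.00012), and each knockdown alone was called, with 0.61 for knockdown1 and 0.88 for knockdown2.

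MBL2 encodes mannose-binding lectin, which recognises sugars on microbes. Its signals were 39.5, 37.6 and 56.5 in knockdown1 and 11.3, 10.6 and 9.36 in knockdown2, against 17.0, 21.9 and 28.0 in control. The 3 groups did not overlap, with knockdown1 above control and knockdown2 below it. MBL2 rose in knockdown1 (0.96, SE 0.32, adjusted p = 0.0227) and fell in knockdown2 (-0.98, SE 0.32, adjusted p = 0.024), and the mean of the 2 differences was -0.01. The rise in knockdown1 did not pass without control replicate 1 or without knockdown1 replicate 3 (0.79 and 0.78, adjusted p = 0.104 and 0.129). The fall in knockdown2 did not pass without knockdown2 replicate 3 or without control replicate 3 (-0.91 and -0.81, adjusted p = 0.0623 and 0.0922), and both calls ended when dim probe sets were kept in the test (adjusted p = 0.0545 and 0.0586). With the pseudocount raised to the array median the knockdown2 value was -0.56. All these signals are low on arrays whose median is 14.1.

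MASP1 and MASP2, the proteases that lectins activate, were near the array median in every group. MASP1 averaged 12.4 ± 3.28 in knockdown1, 15.1 ± 2.83 in knockdown2 and 15.6 ± 2.39 in control (SD, n = 3 each), and its interval over both knockdowns ran from -0.96 to 0.59. MASP2 averaged 14.0 ± 0.48 in knockdown1, 15.6 ± 7.27 in knockdown2 and 22.2 ± 7.77 in control (SD, n = 3 each), with an interval of -1.27 to 0.20. These intervals are wide and neither gene passed (adjusted p = 0.758 and 0.277). The ficolin genes FCN1 and FCN3, which encode further lectins, did not pass the filter, with highest signals over the 9 arrays of 12.9 and 16.4.

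In the alternative pathway CFB fell and C3 did not change over both knockdowns by this test. CFB encodes factor B, the protease precursor of the alternative C3 convertase. Its signals were 136.6, 176.6 and 188.2 in knockdown1 and 195.2, 174.2 and 224.9 in knockdown2, against 429.9, 371.8 and 492.1 in control. The highest knockdown array stayed well below the lowest control array. The log2 fold change was -1.24 (SE 0.14, adjusted p = 6.62e-08), or 2.36-fold lower, and it was called in knockdown1 (-1.36) and in knockdown2 (-1.12).

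C3, the component on which all pathways converge, had signals of 2198, 2154 and 2527 in knockdown1 and 3033, 3058 and 3021 in knockdown2, against 2834, 2346 and 2952 in control. The 3 knockdown2 arrays lay above all control arrays and knockdown1 overlapped with control. Over both knockdowns the log2 fold change was -0.03 (SE 0.11, 95% confidence interval -0.26 to 0.19, adjusted p = 0.857). In knockdown1 alone it was -0.24 (adjusted p = 0.159), which passed without control replicate 2 (-0.34, adjusted p = 0.0317) and with the values as deposited (-0.15, adjusted p = 0.0372). In knockdown2 alone it was 0.17 (adjusted p = 0.355), which passed after quantile normalization (0.12, adjusted p = 0.0436). CFD, which encodes factor D, the protease that cleaves factor B, averaged 24.2 ± 10.7 in knockdown1, 29.5 ± 10.5 in knockdown2 and 35.7 ± 3.99 in control (SD, n = 3 each) and did not pass (-0.46, 95% confidence interval -1.02 to 0.09, adjusted p = 0.205). In knockdown1 alone CFD passed only without knockdown1 replicate 3 (-0.93, adjusted p = 0.0356), among the settings tried. CFP, the properdin gene, reached at most 1.15 on any array and was not tested.

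The terminal pathway held falls in all 3 genes of complement component C8, while C5 and C6 did not pass. Of all tested genes 17.9% fell over both knockdowns. C8 is a complex of an alpha, a beta and a gamma chain that inserts into the target membrane, and the chains are encoded by C8A, C8B and C8G. C8A signals were 10.5, 4.13 and 20.7 in knockdown1 and 18.9, 24.1 and 6.42 in knockdown2, against 55.0, 33.4 and 54.0 in control. C8B signals were 22.3, 9.97 and 27.2 in knockdown1 and 4.87, 13.2 and 4.31 in knockdown2, against 60.9, 46.5 and 64.8 in control. C8G signals were 34.7, 31.3 and 40.9 in knockdown1 and 28.3, 36.2 and 47.1 in knockdown2, against 74.9, 74.8 and 100.6 in control. In each of the 3 genes every knockdown array lay below every control array.

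C8A fell by 1.83 over both knockdowns (SE 0.40, adjusted p = 0.000624), C8B by 2.21 (SE 0.35, adjusted p = 1.33e-05) and C8G by 1.17 (SE 0.19, adjusted p = 1.93e-05). Each was also called in each knockdown alone. C8A and C8B are close to the array median in the knockdown arrays, so the pseudocount sets the size of their change. Raising the pseudocount from 1.41 to the array median gave -1.16 for C8A and -1.42 for C8B, both still called. The C8A call in knockdown2 (-1.58, SE 0.46, adjusted p = 0.00982) ended without knockdown2 replicate 3 (-1.07, adjusted p = 0.0695), with dim probe sets kept (adjusted p = 0.051) and without the variance trend (adjusted p = 0.0718).

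C8A and C8B are neighbours on chromosome 1 in the RefSeq gene table, with no coding gene between them. The 250 bases before each gene's start are shown, read 5′ to 3′ on the gene's own strand from RefSeq promoters of build GRCh38.p14. C8A is shown because, among called complement genes with a window there, it is the one that holds the HNF4-type pattern CAAAGNNCA. The called genes C8G and CLU had no window there and were not searched. C8B is set beside C8A as the neighbour that fell with it, a choice made after the values of C8B were seen. Capitals mark the match, which lies on the other strand as CAAAGGCCA, 132 to 124 bases before the start.
C8A, chr1:56854547-56854796, plus strand: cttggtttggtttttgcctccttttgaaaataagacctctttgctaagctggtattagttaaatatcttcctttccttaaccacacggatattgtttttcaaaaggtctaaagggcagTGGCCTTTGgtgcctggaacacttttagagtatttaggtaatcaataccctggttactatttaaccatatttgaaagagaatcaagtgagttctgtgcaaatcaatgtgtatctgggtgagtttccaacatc
C8B, chr1:56966016-56966265, minus strand: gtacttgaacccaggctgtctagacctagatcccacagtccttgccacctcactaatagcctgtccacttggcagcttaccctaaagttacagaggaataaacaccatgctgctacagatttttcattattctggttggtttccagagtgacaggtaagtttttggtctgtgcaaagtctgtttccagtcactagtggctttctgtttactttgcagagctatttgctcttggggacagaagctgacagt

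Searched on both strands, CAAAGNNCA was in 2 of 40 RefSeq promoter windows of 27 complement genes, those of C8A and of 1 start of C6. It was in 4.44% of all 35116 windows of the same length. The stricter forms CAAAGTCCA and CAAAGGTCA, which CAAAGNNCA includes, were in none of the 40 windows and in 0.325% and 0.339% of all windows. A match of letters is a description of these windows and not a binding site. C6, whose window holds CAAAGTTCA at 52 to 44 bases before the start, had signals of 10.5 to 19.3 over all 9 arrays and did not pass (0.25, 95% confidence interval -0.50 to 1.00, adjusted p = 0.656).

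C5, whose cleavage starts the terminal pathway and releases C5a, averaged 723.7 ± 76.8 in knockdown1, 793.8 ± 75.1 in knockdown2 and 715.0 ± 146 in control (SD, n = 3 each). The groups overlapped, and the log2 fold change was 0.10 (SE 0.13, 95% confidence interval -0.17 to 0.37, adjusted p = 0.619). C7 and C9, which encode further parts of the membrane attack complex, did not pass the filter, with highest signals of 6.77 and 4.19.

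**Figure D2:**
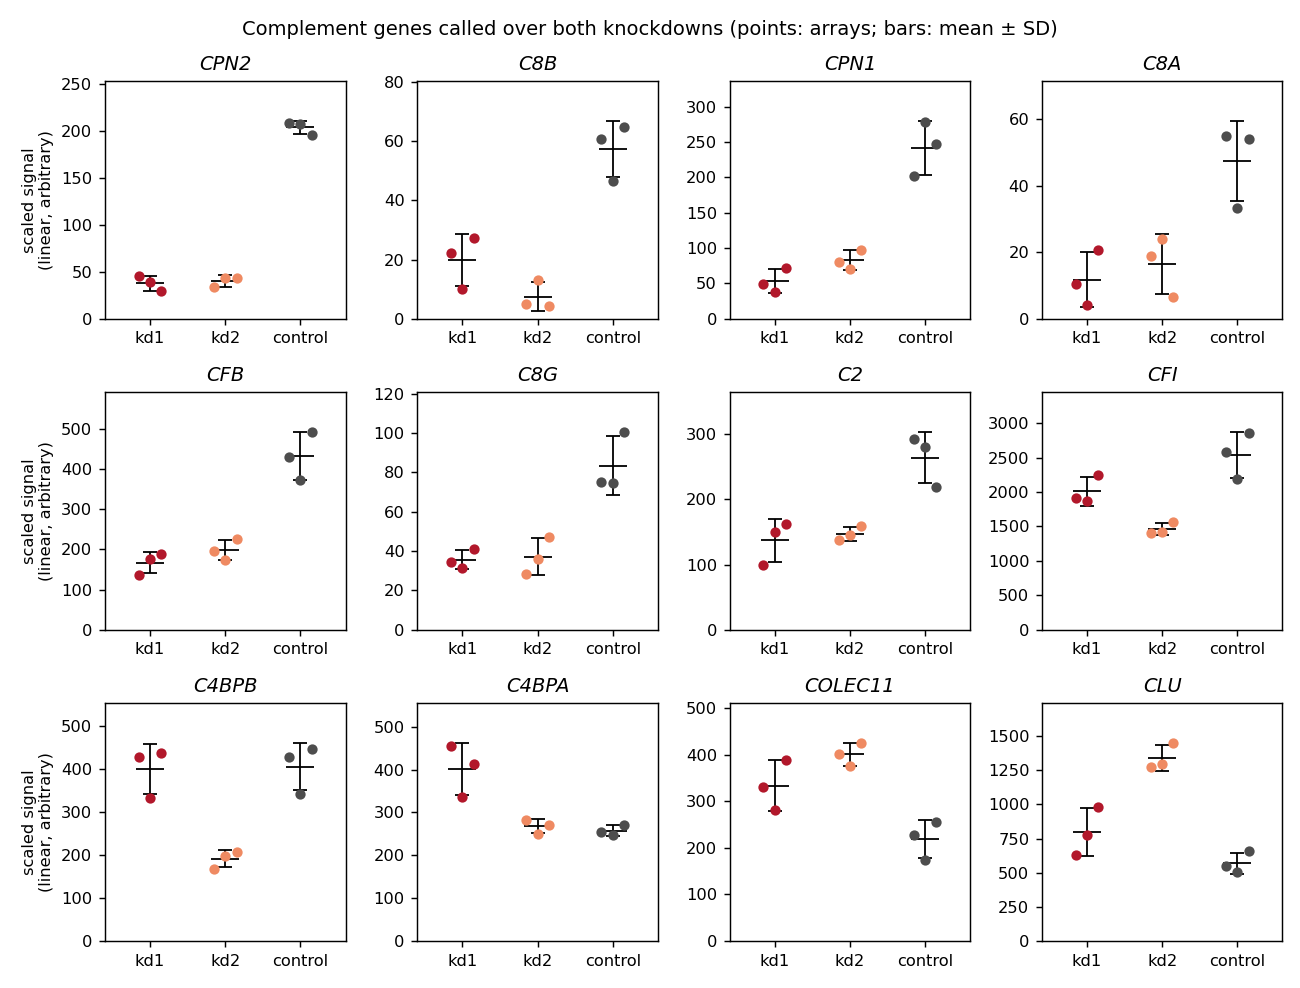
Scaled signal on each array (points, linear axis from 0) with mean and SD (bars, n = 3) for the 12 complement genes called over both knockdowns, in knockdown1, knockdown2 and control. In CPN2, CPN1, CFB, C2 and the C8 genes every knockdown point lies below every control point, whereas C4BPA and C4BPB differ between the knockdowns.

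All 6 tested soluble regulators were called over both knockdowns, 4 lower and 2 higher. Of all tested genes 17.9% fell and 14.7% rose in this comparison (32.6% called in either direction). CPN1 and CPN2 encode the catalytic and the regulatory subunit of carboxypeptidase N, a plasma enzyme that trims the anaphylatoxins C3a and C5a. CPN2 signals were 45.0, 39.3 and 29.1 in knockdown1 and 33.3, 43.4 and 43.9 in knockdown2, against 208.4, 208.2 and 195.9 in control. CPN1 signals were 48.7, 38.3 and 71.4 in knockdown1 and 80.5, 70.6 and 97.6 in knockdown2, against 202.0, 277.9 and 247.0 in control. In both genes the knockdown arrays lay far below the control arrays, with no overlap. CPN2 fell by 2.36 (SE 0.16, adjusted p = 9.63e-12), 5.14-fold lower, the largest fall over both knockdowns among the tested complement genes. CPN1 fell by 1.87 (SE 0.17, adjusted p = 1.45e-09), 3.65-fold lower.

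CFI encodes factor I, the protease that inactivates C3b and C4b. Its signals were 1914, 1870 and 2255 in knockdown1 and 1402, 1424 and 1571 in knockdown2, against 2581, 2193 and 2855 in control. Knockdown2 lay below control without overlap and the highest knockdown1 array reached above the lowest control array. CFI fell by 0.56 over both knockdowns (SE 0.12, adjusted p = 0.000342) and by 0.79 in knockdown2 (SE 0.13, adjusted p = 4.21e-05). In knockdown1 the log2 fold change was -0.33 (SE 0.13, adjusted p = 0.0542), which passed in 7 alternative settings, among them without control replicate 2 (-0.44, adjusted p = 0.00998) and without knockdown1 replicate 3 (-0.42, adjusted p = 0.0178). A dimmer CFI probe set fell over both knockdowns as well (-0.50, SE 0.10, limma adjusted p = 0.000808 among all probe sets).

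C4BPA and C4BPB encode the alpha and beta chains of C4b-binding protein, a cofactor of factor I, and lie side by side on chromosome 1. C4BPB signals were 428.0, 331.9 and 437.6 in knockdown1 and 168.3, 198.5 and 207.8 in knockdown2, against 427.6, 342.2 and 445.7 in control. C4BPA signals were 455.8, 336.2 and 412.7 in knockdown1 and 282.8, 250.2 and 269.8 in knockdown2, against 254.8, 247.2 and 270.5 in control. C4BPB was low in knockdown2 and level with control in knockdown1, while C4BPA was high in knockdown1 and overlapped with control in knockdown2. C4BPB fell by 1.07 in knockdown2 (SE 0.16, adjusted p = 5.69e-06), with -0.02 in knockdown1 (95% confidence interval -0.35 to 0.30, adjusted p = 0.931). C4BPA rose by 0.63 in knockdown1 (SE 0.15, adjusted p = 0.00145), with 0.05 in knockdown2 (95% confidence interval -0.25 to 0.36, adjusted p = 0.837).

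Over both knockdowns the calls of C4BPB (-0.55, adjusted p = 0.00236) and C4BPA (0.34, adjusted p = 0.0427) thus average unlike groups. Both ended when the 6 knockdown arrays were pooled as 1 group (adjusted p = 0.248 and 0.274). The C4BPA call also ended when any 1 of 7 arrays was left out, all except knockdown1 replicate 2 and control replicate 3 (0.29 to 0.36, adjusted p = 0.0592 to 0.133), and without the variance trend (adjusted p = 0.0689).

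CLU encodes clusterin, which binds and holds back the forming membrane attack complex. Its signals were 629.1, 776.0 and 982.5 in knockdown1 and 1276, 1296 and 1450 in knockdown2, against 546.8, 506.2 and 655.0 in control. Knockdown2 lay above control without overlap, and the lowest knockdown1 array lay under the highest control array. CLU rose by 0.85 over both knockdowns (SE 0.13, adjusted p = 1.09e-05), by 0.47 in knockdown1 (SE 0.15, adjusted p = 0.0196) and by 1.24 in knockdown2 (SE 0.15, adjusted p = 4.62e-07). The knockdown1 call ended without control replicate 1, control replicate 2 or knockdown1 replicate 3 (0.44, 0.39 and 0.30, adjusted p = 0.0727, 0.0636 and 0.141) and without the variance trend (adjusted p = 0.0881). Of its 3 dimmer probe sets 2 passed the filter, and both rose over both knockdowns (0.74 and 1.10). SERPING1, the C1 inhibitor gene, and CFHR2 and CFHR4 did not pass the filter, with highest signals of 17.2, 11.3 and 12.0.

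The membrane regulators CD46, CD55 and CD59 protect cells from complement on their own surface. None was called over both knockdowns, beside 32.6% of all tested genes called. All 3 95% confidence intervals included 0, although CD55 passed with the values as deposited and after quantile normalization, and a dimmer CD55 probe set rose over both (0.42, limma adjusted p = 0.027 among all probe sets). CD55, which speeds the decay of the C3 convertases, had signals of 337.4, 297.8 and 336.3 in knockdown1 and 425.9, 387.6 and 390.8 in knockdown2, against 331.3, 271.9 and 318.8 in control. Knockdown2 was above control without overlap. CD55 rose in knockdown2 (0.39, SE 0.14, adjusted p = 0.0443), a call that ended when any 1 of 7 arrays was left out, all except knockdown1 replicate 3 and control replicate 3 (0.30 to 0.44, adjusted p = 0.052 to 0.179). It also ended without the variance trend (adjusted p = 0.0608). That dimmer CD55 probe set rose by 0.69 in knockdown2 (SE 0.16), with limma adjusted p = 0.00332 among all probe sets, and the remaining one gave 0.33 and did not pass (limma adjusted p = 0.133).

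CD46, a cofactor of factor I, averaged 1735 ± 259 in knockdown1, 1834 ± 66.4 in knockdown2 and 1696 ± 402 in control (SD, n = 3 each), with an interval of -0.17 to 0.36 over both knockdowns. CD59, which blocks assembly of C9, averaged 1676 ± 325 in knockdown1, 1454 ± 135 in knockdown2 and 1590 ± 118 in control (SD, n = 3 each), with an interval of -0.29 to 0.22. The brightest CD59 probe set thus gave no call, but the probe sets of CD59 did not all give the same answer. One dimmer set, with means of 1035 ± 119, 665.6 ± 78.9 and 1014 ± 85.6 in knockdown1, knockdown2 and control (SD, n = 3 each), fell in knockdown2 (-0.61, SE 0.13, limma adjusted p = 0.00202 among all probe sets). That set was higher in knockdown1 than in knockdown2 (0.64, limma adjusted p = 0.00144), as was another (0.44, limma adjusted p = 0.0225), and a further one fell in knockdown1 (-0.43, limma adjusted p = 0.028). Of 16 further probe sets above the filter in 10 complement genes, 14 had the same sign as the brightest one over both knockdowns, and the 2 with the opposite sign, of C1RL and MASP2, were not called.

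The receptors for the anaphylatoxins C5a and C3a are encoded by C5AR1 and C3AR1 and are known mainly from myeloid cells. C5AR1 signals were 4.98, 1.26 and 1.88 in knockdown1 and 16.1, 15.4 and 10.9 in knockdown2, against 25.7, 15.5 and 15.4 in control. Knockdown1 was the low group, below every array of the others. C5AR1 fell in knockdown1 (-2.37, SE 0.62, adjusted p = 0.00356), and its value in knockdown2 did not pass (-0.36, 95% confidence interval -1.63 to 0.91, adjusted p = 0.726). Over both knockdowns it missed the threshold (-1.37, SE 0.54, adjusted p = 0.0512) and passed in 9 alternative settings, among them without knockdown1 replicate 1 (-1.55, adjusted p = 0.0254) and without knockdown1 replicate 3 (-1.31, adjusted p = 0.0478). All these signals are low, and with the pseudocount raised to the array median the knockdown1 value was -0.96. The 5 macrophage and leukocyte markers with a probe set did not move one way. CD14 averaged 2.11, 4.02 and 23.4 in knockdown1, knockdown2 and control and fell. CD14 passed the filter only through its control arrays (31.9, 21.6 and 16.7), and a gene kept in that way is bound to look lower in the knockdowns. PTPRC averaged 2.06, 3.04 and 6.90. CSF1R averaged 16.8, 15.9 and 14.2 in the same 3 groups and did not pass, AIF1 averaged 7.28, 4.13 and 2.97, and CD163 averaged 5.86, 7.43 and 2.15. PTPRC, AIF1 and CD163 did not pass the filter, and the part of these markers in the C5AR1 result was not tested. C3AR1 did not pass the filter, with signals of 2.53 to 19.8.

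**Figure D3:**
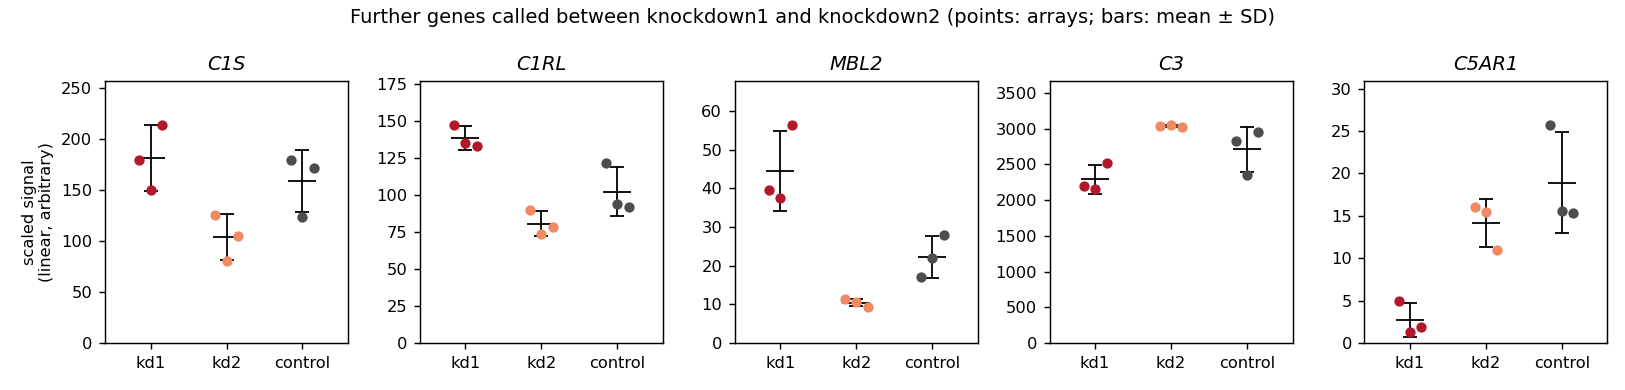
Scaled signal on each array (points, linear axis from 0) with mean and SD (bars, n = 3) for the 5 complement genes called between the knockdowns but not over both against control. Knockdown1 lies above knockdown2 in C1S, C1RL and MBL2 and below it in C3 and C5AR1.

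Set directly against each other, the knockdowns differed in 11 of the 26 tested complement genes, 7 higher and 4 lower in knockdown1 than in knockdown2. Of all tested genes 10.5% were higher and 16.1% lower in knockdown1 (26.6% in either direction). The arrays of the 2 knockdowns did not overlap in 10 complement genes, 6 higher and 4 lower in knockdown1, beside 18.9% and 24.8% of all tested genes (43.7% in either direction). MBL2 differed most among the genes higher in knockdown1 (1.94, SE 0.32, adjusted p = 3.68e-05), and the others were C8B, C4BPB, C1S, C1RL, C4BPA and CFI. C5AR1, CLU, CPN1 and C3 were lower in knockdown1. C4BPB and C4BPA both differed (1.05, SE 0.16, adjusted p = 7.66e-06, and 0.57, SE 0.15, adjusted p = 0.00435), and in both genes all knockdown1 arrays lay above all knockdown2 arrays. The C8 genes did not all do the same, since C8B was higher in knockdown1 (1.29, SE 0.40, adjusted p = 0.0175) and C8A and C8G were not called (-0.49, 95% confidence interval -1.43 to 0.45, and -0.04, 95% confidence interval -0.49 to 0.41).

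Of the genes that fell in both knockdowns, C2, CFB and CPN2 also gave no call between them, with differences of -0.13 (95% confidence interval -0.49 to 0.23), -0.25 (-0.58 to 0.08) and -0.10 (-0.48 to 0.29). CPN1 was lower in knockdown1 (-0.67, SE 0.20, adjusted p = 0.0113). C3 was lower in knockdown1 (-0.41, SE 0.13, adjusted p = 0.0163). The difference was -0.23 after quantile normalization, and the call ended without any 1 of knockdown1 replicates 1 and 2 or knockdown2 replicates 1, 2 and 3 (-0.41 to -0.37, adjusted p = 0.06 to 0.0741). The median difference of all tested genes was -0.03 here and 0.08 with the values as deposited, a shift of 0.12, and 4 complement genes were then lower and 8 higher, the eighth being CD59.

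Calls between the knockdowns ended for C8B without knockdown1 replicate 1, knockdown1 replicate 3 or knockdown2 replicate 3 (1.03 to 1.16, adjusted p = 0.0591 to 0.114). They ended for CFI without knockdown2 replicate 1 or 2 (0.42 and 0.43, adjusted p = 0.0606 and 0.0562). For CPN1 they ended without knockdown1 replicate 2 or knockdown2 replicate 3 (-0.47 and -0.55, adjusted p = 0.1 and 0.0684), and for C5AR1 without knockdown2 replicate 1 or 2 (-1.91 and -1.94, adjusted p = 0.0693 and 0.0652). Without the variance trend those of C3, C8B, CFI and CPN1 ended (adjusted p = 0.0544 to 0.0774), with dim probe sets kept those of C3 and C8B (adjusted p = 0.0533 and 0.0632), and with the mean of its probe sets that of C1RL (0.25, adjusted p = 0.385). With the pseudocount raised to the array median the differences were 1.24 for MBL2, 0.64 for C8B and -0.75 for C5AR1.

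**Figure D4:**
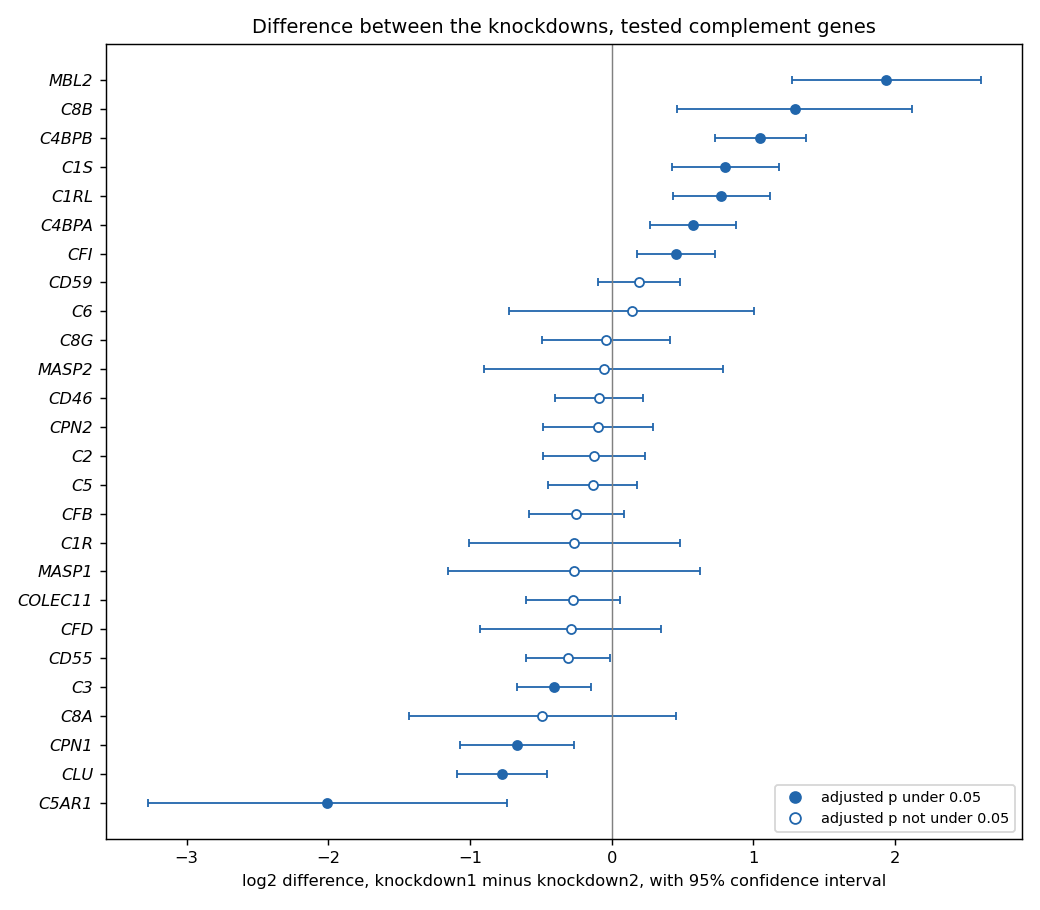
Difference between knockdown1 and knockdown2 on the log2 scale, knockdown1 minus knockdown2, for the 26 tested complement genes in order of size, with 95% confidence intervals and filled symbols where the adjusted p passed. The 7 filled symbols at the top run from MBL2 to CFI and the 4 at the bottom are C3, CPN1, CLU and C5AR1.

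Over both knockdowns, neighbouring complement genes did not all go in 1 direction. C8A and C8B, and C2 and CFB with ZBTB12 between them, are neighbours in the RefSeq gene table whose members both fell. C4BPB and C4BPA are neighbours that were called in opposite directions over both knockdowns. Those calls ended after pooling the knockdowns, and in neither knockdown alone were both genes called. CD55, next to C4BPA on the other side, was not called over both knockdowns (0.23). C1S, C1R and C1RL follow each other on chromosome 12 and none was called over both knockdowns. Between the knockdowns C4BPB, C4BPA, C1S and C1RL were all higher in knockdown1, and C1R was not called.

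Beyond these 36, a list of 26 other complement and related genes held 20 with a probe set of their own and 7 that passed the filter. Of these 7, 1 was called over both knockdowns, beside 32.6% of all tested genes. It was PROS1, which fell. It encodes protein S, the partner of C4b-binding protein in plasma. PROS1 signals were 778.1, 544.8 and 774.6 in knockdown1 and 886.1, 759.6 and 728.3 in knockdown2, against 965.9, 786.9 and 1225 in control. All 3 knockdown1 arrays lay below the lowest control array, and knockdown2 overlapped with control. PROS1 fell in knockdown1 (-0.50, SE 0.16, adjusted p = 0.0188), and its value in knockdown2 did not pass (-0.31, SE 0.16, adjusted p = 0.176). Alternative settings were run for the value over both knockdowns, where the fall of 0.40 (SE 0.14, adjusted p = 0.0291) became -0.24 without control replicate 3 (adjusted p = 0.189). The call also ended without control replicate 1, knockdown1 replicate 2, knockdown2 replicate 2 or knockdown2 replicate 3 (-0.41 to -0.32, adjusted p = 0.055 to 0.0822), with dim probe sets kept, without the variance trend, and after pooling the knockdowns (adjusted p = 0.0674 to 0.14).

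Complement genes of hepatocytes are known to respond to interleukin-6 and other cytokines, and a list of 26 such signalling genes and transcription factors was read beside them. All 22 with a probe set of their own were tested, and 5 rose and 5 fell over both knockdowns, with a median log2 fold change of -0.09. That is 45.5% called, beside 32.6% of all tested genes. The 3 with the largest change belong to interleukin-6 signalling. JAK1, JAK2, SOCS1 and SOCS3, of that signalling and on the same list, were not called over both knockdowns (-0.21, -0.10, -0.67 and 0.21). A dimmer probe set of JAK2 rose and a dimmer one of SOCS3 fell (0.78 and -1.56, limma adjusted p = 0.0297 and 0.00808 among all probe sets). IL6ST, the signal-transducing receptor chain gp130, had signals of 833.5, 731.9 and 795.8 in knockdown1 and 1759, 1567 and 1587 in knockdown2, against 3262, 2717 and 3516 in control. IL6R, the ligand-binding chain, had signals of 294.3, 256.5 and 284.2 in knockdown1 and 806.4, 807.2 and 802.5 in knockdown2, against 172.6, 162.5 and 299.8 in control. STAT3, the transcription factor that the receptor activates, had signals of 807.0, 617.4 and 725.6 in knockdown1 and 474.9, 440.3 and 424.6 in knockdown2, against 274.3, 235.1 and 337.8 in control.

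IL6ST was lowest in knockdown1, IL6R highest in knockdown2 and STAT3 highest in knockdown1, and only the knockdown1 arrays of IL6R overlapped with control. IL6ST fell by 1.47 over both knockdowns (SE 0.11, adjusted p = 7.01e-11), while IL6R rose by 1.21 (SE 0.15, adjusted p = 3.59e-07) and STAT3 by 1.01 (SE 0.13, adjusted p = 8.13e-07). The IL6R call ended after pooling the knockdowns (adjusted p = 0.0696), and the STAT3 value was 0.52 as the mean of its probe sets. The dimmest STAT3 probe set gave -0.73 over both knockdowns (limma adjusted p = 0.123 among all probe sets), and the other dimmer ones 0.81 and 0.99. In knockdown1 that dimmest set fell (-1.21, limma adjusted p = 0.0262 among all probe sets). The 3 genes all differed between the knockdowns, by -1.06 (SE 0.13) for IL6ST, -1.53 (SE 0.18) for IL6R and 0.67 (SE 0.15) for STAT3. Their part in the complement results was not tested.

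**Figure D5:**
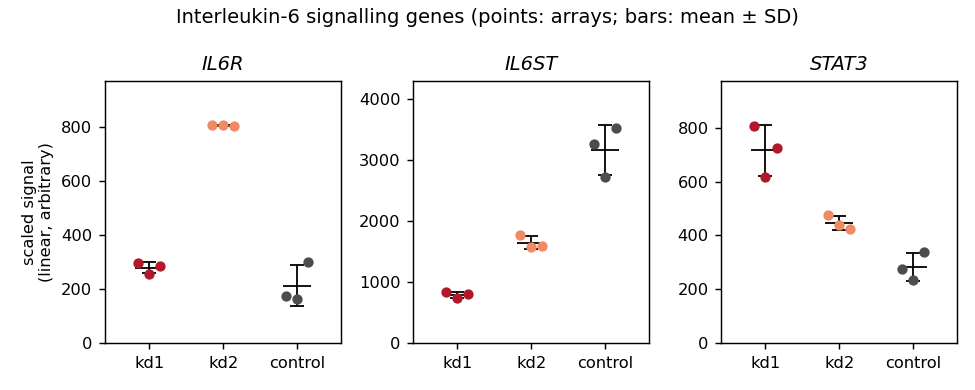
Scaled signal on each array (points, linear axis from 0) with mean and SD (bars, n = 3) for IL6R, IL6ST and STAT3 in knockdown1, knockdown2 and control. IL6ST is low in both knockdowns, IL6R stands out in knockdown2 and STAT3 is highest in knockdown1.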

How the data were processed

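RNA of HepG2 cells was primed with oligo(dT), labelled and put on the arrays, as the labels' protocols say. The authors deposited linear signal intensities per probe set, made with MAS5 per the submitters' processing notes. No source used here gives its version, and the trimmed mean of every array was 100.0. For the values here, each array was multiplied by 0.898 to 1.15 so that its median became 14.1, and log2(signal + 1.41) was taken. Of 54675 probe sets, 41091 had 1 gene symbol in the platform annotation, 1801 had several, 11721 had none and 62 were controls. Probe sets above their array's median on at least 3 arrays were kept, and each gene was represented by the one with the highest mean, which left 13056 genes. Tests between groups used limma 3.58.1 (R 4.3.3, a variance trend, all 9 arrays in 1 fit, two-sided, Benjamini-Hochberg adjustment over all tested genes, threshold 0.05). The fit was tested on simulated data. Named genes are all 36 complement genes, HNF4G, and the 3 called genes with the largest change from each of 2 other lists (1 was called in the first). The macrophage, endothelial and biliary markers, JAK1, JAK2, SOCS1 and SOCS3, and ZBTB12 as a neighbour, were named after their values or position were seen. The complement genes and the other lists were chosen with earlier results of these data known. The main fit did not use the replicate numbers of the titles to pair the arrays. At most 1.37% of values were identical between any 2 arrays of a group. Alternatives were another scaling, pseudocount, filter, variance model, probe-set rule, replicate block, pooling and leaving out each array.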

Additional observations from a re-analysis of the deposited data

Results flagged for a closer look

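In 11 complement genes the 2 knockdowns differed from each other by limma, and the values given are log2 differences, knockdown1 minus knockdown2. Higher in knockdown1 were MBL2 (1.94), C8B (1.29), C4BPB (1.05), C1S (0.80), C1RL (0.77), C4BPA (0.57) and CFI (0.45). Lower in knockdown1 were C5AR1 (-2.01), CLU (-0.77), CPN1 (-0.67) and C3 (-0.41). The labels do not say how the knockdowns differ, and groups of 3 arrays are too small for a check of single arrays that stand apart.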

How the results depend on the processing

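The counts of complement genes that fell or rose over both knockdowns, and in knockdown2 alone, stayed within 1.5 times under all alternatives, and no called complement gene changed sign. In knockdown1 the 5 rises became 3 with dim probe sets kept, 3 without the variance trend and 2 to 5 with 1 array left out (3 without control replicate 1 or 2, and 2 without knockdown1 replicate 3). Between the knockdowns the 4 genes lower in knockdown1 became 2 without the variance trend and 2 to 4 with 1 array left out (2 without knockdown1 replicate 2 or any 1 of the knockdown2 arrays). Pooling the knockdown arrays left 1165 lower and 1040 higher among all genes, against 2340 and 1916, and 10 of the 12 complement calls. With signals as deposited and with quantile normalization, all genes called higher became 3105 and 3108 in knockdown1 against control, beside 1866, and 2803 and 2761 between the knockdowns, beside 1368. Genes that fell then made up 45.8% and 46.3% of calls in knockdown1, beside 57.1%, and 42.9% and 43.9% between the knockdowns, beside 60.6%. With 1 array left out, all genes called over both knockdowns ran from 1853 to 2787 lower and 1442 to 2575 higher. Over both knockdowns 2778 fell and 2718 rose with signals as deposited, and 2829 and 2731 after quantile normalization, against 2340 and 1916. The scaling used here multiplied control replicate 2 by 0.904 and control replicate 3 by 1.15. The standard error of CFI in knockdown1 was 0.06 with signals as deposited and 0.13 as scaled here. The cause of these differences in counts was not tested. Deviations from the group means correlated at -0.02 to 0.13 between same-numbered arrays, with 1 of 9 pairs over 0.1. Between different-numbered arrays they correlated at -0.12 to 0.09, and 5 of 9 arrays were closest to their own number. With the replicate block 10 complement genes fell and 3 rose over both knockdowns, and no call was lost. Of all tested genes, 2644 then fell and 2261 rose, against 2340 and 1916 without the block. The source of this gain was not tested. Dim genes such as MBL2, C8A, C8B and C5AR1 have the least certain fold changes.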
